A study of Mus musculus with 12 samples.

Results

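TM3, a mouse line derived from testicular Leydig cells, was exposed for 72 h to 100 uM mono-2-ethylhexyl phthalate (MEHP) dissolved in DMSO, or to 0.1% DMSO alone. The response was read in 6 libraries, 3 of each group, chosen by their titles among the 12 libraries of the series, and in all genes of the raw-count table. The other 6 libraries were of TM4, a mouse line of Sertoli cell origin, under the same 2 conditions. No transgene, knockout or other agent is named for any group. Whether replicates came from separate cultures is not stated in the labels. Each p-value therefore reflects the variation among these libraries alone, and that variation may be technical.

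MEHP is the monoester that forms when the plasticizer DEHP is cleaved in the body, and it is known as a toxicant of the testis and as an activator of the PPAR family of nuclear receptors. Leydig cells lie between the seminiferous tubules and make testosterone from cholesterol under the control of luteinizing hormone. They also secrete chemokines, growth factors and matrix proteins that act on neighbouring macrophages, vessels and peritubular cells. Immortalized lines often keep only part of this programme.

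The TM3 libraries held 15771908 to 17696474 counts, so that a count of 0, taken as allowing up to 3 counts, allowed up to 0.17 to 0.19 CPM (counts scaled to a common library size with edgeR's TMM factors), counting error only. Mitochondrial transcripts took 1.79% to 1.87% of the counts, and the 10 most abundant genes took 6.70% to 6.79% under DMSO and 7.35% to 7.41% under MEHP. Each pair of replicates differed by more than sampling noise, with 2.29 to 5.07 per degree of freedom in a chi-square test of their counts. Over the 6 TM3 libraries the first principal component held 34% of the variance and separated the groups.

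The label of a Leydig line was only partly met by the defining transcripts. Lhcgr, the luteinizing hormone receptor, and the steroid dehydrogenases Hsd3b1, Hsd3b6 and Hsd17b3 had a count of 0 in every TM3 library. Cyp11a1, the side-chain cleavage enzyme that opens steroid synthesis, stood at 0.364, 0 and 0.127 CPM under DMSO and 0.315, 0.0598 and 0.188 CPM under MEHP. Cyp17a1 stood at 0, 0.17 and 0.0633 CPM and 0.126, 0 and 0 CPM. These levels lie near or below what a count of 0 allows.

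Star, which delivers cholesterol to the mitochondrion, was detected at 5.7, 7.67 and 6.39 CPM under DMSO and 7, 7.12 and 6.69 CPM under MEHP, and its groups overlapped (0.07 ± 0.16, adjusted p = 0.826, log2 fold change of MEHP over DMSO ± SE). Insl3, an insulin-like hormone of Leydig cells, stood at 2.18, 1.93 and 1.65 CPM against 3.85, 3.11 and 2.44 CPM. Its groups did not overlap, but it did not pass (0.70 ± 0.26, adjusted p = 0.0641). The adjusted p was 0.0331 to 0.0449 without MEHP replicate 3, without TM4 MEHP replicate 3, with a gene length and GC correction, and in a fit on the TM3 libraries alone. Nr5a1, a master regulator of steroidogenic cells, stood at 0.425, 0.852 and 1.2 CPM and 0.631, 0.598 and 0.75 CPM (-0.32 ± 0.51, adjusted p = 0.75). The 19 Leydig and steroidogenic markers summed to 1495 to 1509.7 CPM under DMSO and 1441 to 1447 CPM under MEHP. Of the 13 that were tested, 1 was called higher and 2 lower. Over all genes tested, 9.04% were called higher and 7.43% lower.

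Markers of other testis cell types were measured beside these. Wt1, a transcription factor of Sertoli and coelomic epithelial cells, stood at 164, 163 and 175 CPM and 171, 167 and 169 CPM, while Sox9 lay between 0.126 and 0.38 CPM, Amh reached at most 1.02 CPM and Fshr was at 0. The 25 Sertoli markers summed to 1986 to 2047 CPM under DMSO and 1879.9 to 1978 CPM under MEHP, with 2 of 15 tested members called higher and 2 lower. The 13 peritubular myoid and fibroblast markers summed to 17025 to 17671 CPM and 16526 to 16804 CPM, with 1 of 11 called higher and 4 lower. The share of these called lower lies above the 7.43% of all genes tested, while 9.04% of all genes were called higher. Endothelial markers summed to 5.68 to 6.92 and 4.13 to 5.36 CPM with 1 of 3 called lower, germ cell markers to 24.6 to 36.5 and 34.6 to 37.5 CPM with 0 of 5 called, and leukocyte markers to 6.2 to 7.5 and 4.97 to 6.43 CPM with 0 of 3 called. The single lower endothelial call was lost in DESeq2 and without DMSO replicate 1 or 3 or MEHP replicate 2 or 3. The Sertoli counts went to 1 higher without DMSO replicate 1 or MEHP replicate 1 and to 1 lower without DMSO replicate 1 or MEHP replicate 2. The Leydig counts went to 2 higher without MEHP replicate 3 and with the length and GC correction, and to 1 lower without MEHP replicate 1. Ptprc, the common leukocyte antigen, was at 0 in all TM3 libraries. In bulk libraries fewer cells of a type and less RNA per cell cannot be told apart, and the part of these markers in the results below was not tested.

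Across the transcriptome the response was broad and mostly small. Of 55004 genes in the table, 15700 were tested, and 2585 of them were called (quasi-likelihood test of edgeR, Benjamini-Hochberg adjusted p below 0.05), which is 16.5% of all genes tested. Of these, 1419 were higher with MEHP (9.04%) and 1166 lower (7.43%), the background shares against which the TM3 counts of each gene list below are read. For TM4 counts the matching shares are 15.9% higher and 15% lower. Of 55 lists, 29 were described because their share called was at least 1.5 times that of all genes or at most 0.5 times. Their place above or below the background was therefore set by that choice and is not a result. The difference of responses, TM4 minus TM3, was called for 26.3% of all genes tested. It contains the TM3 response, so its counts in these lists are not independent of that choice. Each list's median log2 fold change is given with its count, followed by its range over the 6 fits without 1 TM3 library and its value corrected for gene length and GC where either moved by over 1.5 times. The 5th and 95th percentiles of the log2 fold change over all genes were -0.51 and 0.655, and the median was 0.00517. The median fold was 1.283 among genes called higher and 0.8155 among those called lower. Of the higher calls 81.47% and of the lower calls 87.74% were under 1.5-fold, and only 65 (0.414%) and 41 (0.261%) of the tested genes reached 2-fold in a called change. At an unadjusted p under 0.05 there were 4434 genes.

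**Figure D1:**
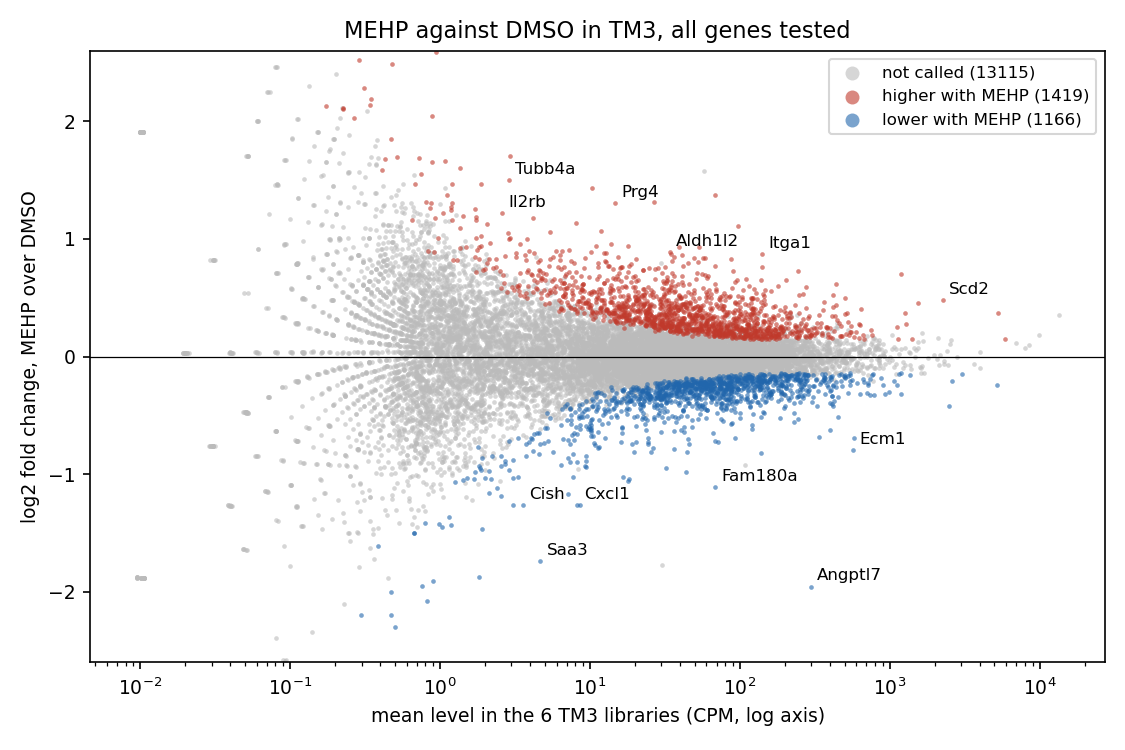
Each point is 1 of the 15700 genes tested, with its mean level over the 6 TM3 libraries (CPM, log axis) against its log2 fold change of MEHP over DMSO; red and blue points are the 1419 and 1166 called genes, and 67 genes beyond 2.6 on the vertical axis lie outside the frame. Most called genes sit within 1 log2 unit of 0, and Angptl7, near 474 CPM under DMSO, lies lowest among the genes above 100 CPM.

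The change in abundance was spread over many genes. Summed over all genes tested, MEHP libraries gained 54060 CPM and lost 45700 CPM relative to DMSO libraries. The gap between these sums follows from the TMM factors and is not a net gain of RNA. The factors were 0.99622 to 1.0026 under DMSO and 0.98739 to 0.99529 under MEHP. The 294 genes with the largest gains made up 50% of the gain, and the 400 with the largest losses 50% of the loss. The top 10 genes held 18.31% of the gain and 8.679% of the loss. The share of genes called rose with level, from 1.83% below 1 CPM to 24% between 30 and 100 CPM and 29.8% between 100 and 300 CPM. The share over all genes thus includes many genes of low level. Gene lists below were not matched for level, and the part of level in their shares was not tested. Without DMSO replicate 1 or 3 or MEHP replicate 1 or 2 the lower calls numbered 709, 739, 759 and 718, and the total number of calls without 1 TM3 library ran from 1742 to 2394.

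Calls were also related to gene length. With gene models split by length into 5 groups of equal size, from shortest to longest, genes called higher numbered 72, 160, 265, 405 and 517, and genes called lower 200, 332, 273, 213 and 148. Relative to the DMSO mean, log2 levels changed per doubling of length by -0.0245, 0.0382 and -0.0136 in DMSO replicates 1 to 3 and by 0.0652, 0.0607 and 0.048 in MEHP replicates 1 to 3. All MEHP values lay above all DMSO values, and DMSO replicate 2 lay nearer to MEHP than to the other DMSO libraries. In a fit corrected for the length and GC content of genes, 1256 genes were called higher and 1580 lower, so that the higher share of the calls went from 54.9% to 44.3%. Of the original calls 2221 (85.9%) were kept in the same direction. A trend with length and the treatment cannot be told apart here, and the corrected values are given below where they end a call.

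**Figure D2:**
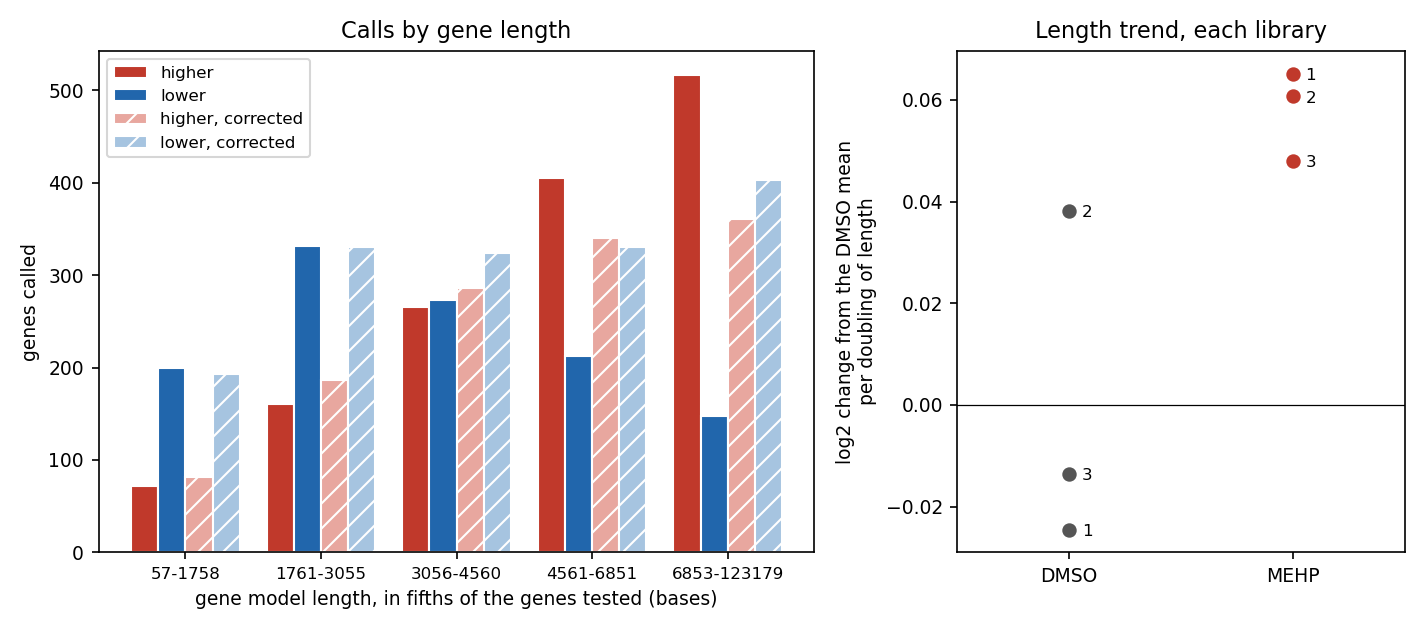
Left, genes called higher (red) and lower (blue) in each of 5 equal groups by gene model length (bases), with hatched bars for the fit corrected for length and GC content; right, the change of log2 level per doubling of gene length in each library relative to the DMSO mean, numbered by replicate. Higher calls increase from 72 to 517 with length in the main fit and from 82 to 361 after correction.

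Gene types differed in how often they were called. Protein-coding genes were called in 19.4% of 12595 cases, long noncoding RNAs in 4.58% of 1287 and pseudogenes in 2.73% of 953. Their median levels under DMSO were 30.9, 1.1 and 1.64 CPM. Unannotated gene models were called in 13.6% of 287 cases, 32 higher and 7 lower. Genes for transcription factors were called in 14.5% of 974 cases, and those of the large C2H2 zinc finger family in 7.99% of 438.

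**Figure D3:**
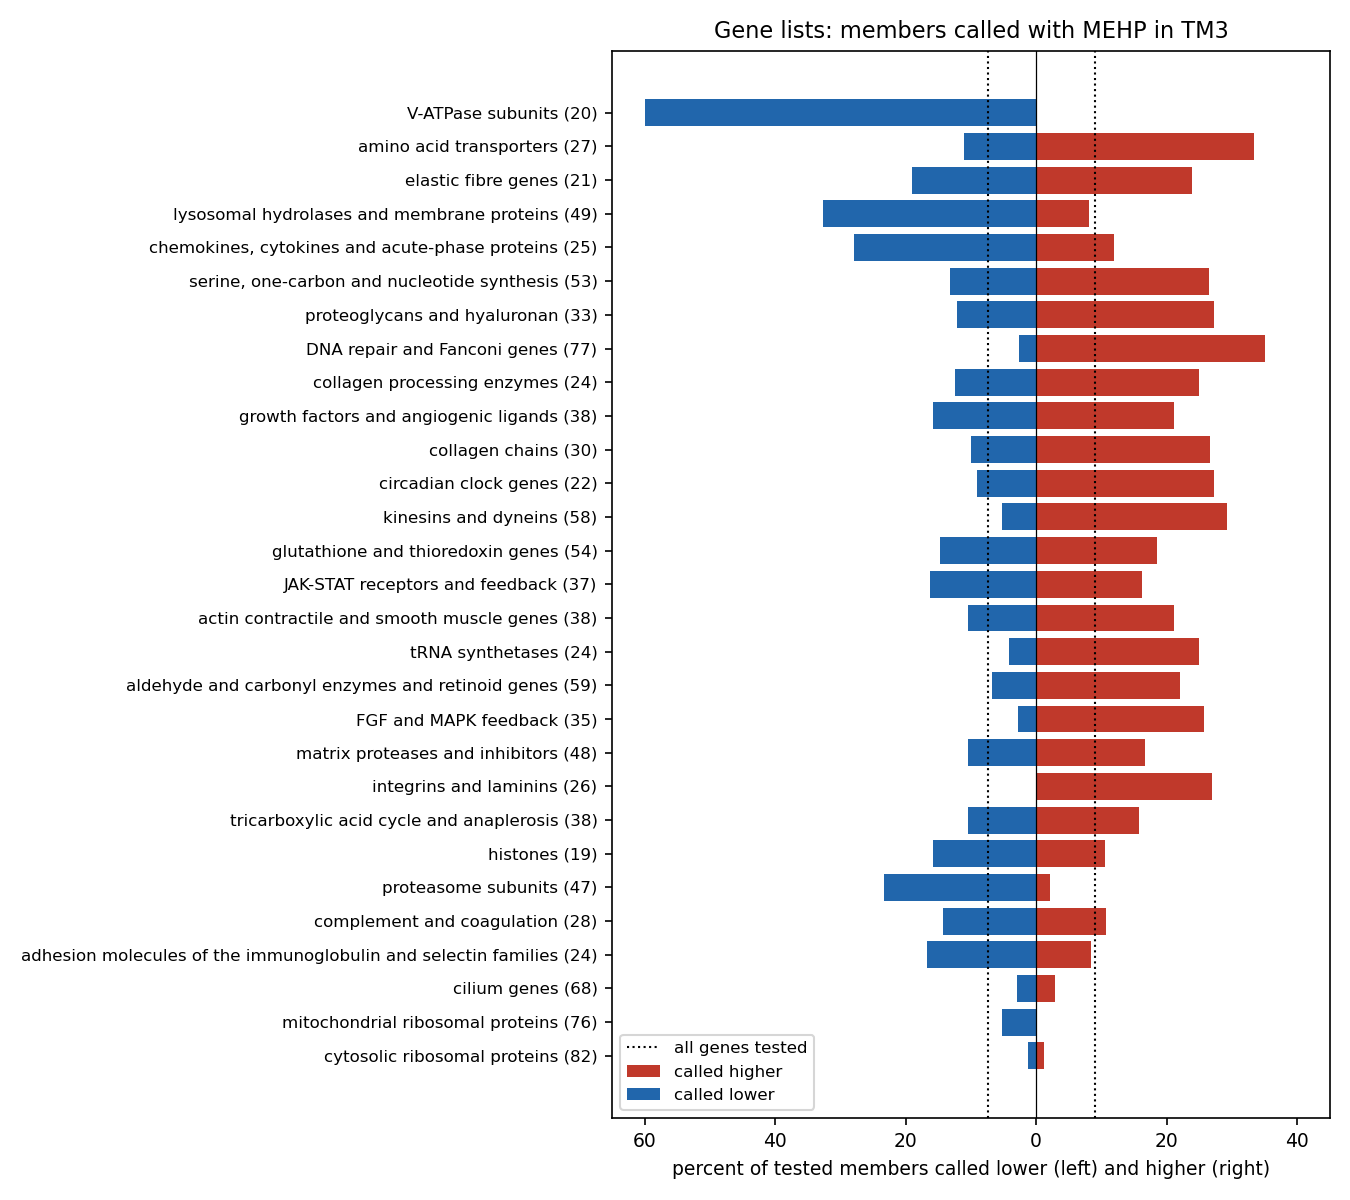
For each of 29 gene lists, bars give the percent of members called lower (left, blue) and higher (right, red) with MEHP in TM3. The number of tested members is in brackets. These 29 of 55 lists were chosen because their share called was far from that of all genes, and the others are not drawn. Dotted lines mark the shares over all genes tested, 7.43% and 9.04%. V-ATPase subunits reach furthest to the left and DNA repair genes furthest to the right.

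Genes for secreted inflammatory signals were called lower more often than higher with MEHP. Chemokines recruit leukocytes through G protein-coupled receptors, acute-phase proteins are made under cytokine control, and many genes of both kinds are known targets of the transcription factor NF-kB. Of 25 tested chemokine, cytokine and acute-phase genes 7 were called lower and 3 higher, 40% against 16.5% of all genes, with a median log2 fold change of -0.25 against 0.00517 over all genes. That median rests on single libraries, and was -0.0603 without DMSO replicate 2, -0.0987 without MEHP replicate 1 and -0.429 without DMSO replicate 3. Called lower were Saa3, Cxcl1, Ccl2, Ccl7, Il18, Cxcl5 and Cxcl10, and called higher Ptx3, Il33 and Cxcl12. In TM4 2 of the 25 were called higher and 6 lower, against 15.9% and 15% of all genes, with a median of -0.23. The difference of responses was called for 8 of the 25, against 26.3% of all genes tested.

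Cxcl1 (ENSMUSG00000029380, chr5:90891241-90893115 on the + strand, mm10), a neutrophil-attracting chemokine, stood at 11, 11.7 and 12.3 CPM under DMSO and at 4.98, 5.26 and 4.31 CPM under MEHP. Every MEHP library lay below every DMSO library (-1.26 ± 0.17, adjusted p = 1.95e-06). Cxcl10, a chemokine for activated T cells, stood at 6.37, 6.87 and 5.44 CPM and 5.42, 4.01 and 2.88 CPM. The groups did not overlap but came close, at 5.44 and 5.42 CPM (-0.61 ± 0.18, adjusted p = 0.0196). Cxcl10 lost its call without DMSO replicate 1 or 2 or MEHP replicate 2 or 3 (adjusted p = 0.0625 to 0.165). The promoters of these 2 chemokines are shown because both hold the NF-kB motif, with the motif in capitals (RefSeq, GRCm38.p6, the 250 bases before the gene start, 5′ to 3′ on the gene's strand).
Cxcl1: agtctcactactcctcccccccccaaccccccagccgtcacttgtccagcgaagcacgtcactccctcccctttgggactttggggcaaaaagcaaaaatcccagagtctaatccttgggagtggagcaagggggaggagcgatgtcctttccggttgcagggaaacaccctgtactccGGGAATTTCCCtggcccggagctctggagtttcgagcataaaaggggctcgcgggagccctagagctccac
Cxcl10: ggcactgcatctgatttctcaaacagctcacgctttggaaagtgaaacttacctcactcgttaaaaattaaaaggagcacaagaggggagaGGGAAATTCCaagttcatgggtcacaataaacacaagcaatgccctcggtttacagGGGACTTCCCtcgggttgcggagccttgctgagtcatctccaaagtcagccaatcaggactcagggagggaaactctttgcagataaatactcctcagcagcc

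The Cxcl1 stretch is chr5:90890995-90891244 (+ strand) and holds 2 overlapping matches, 1 on each strand, and that of Cxcl10 is chr5:92348890-92349139 (- strand) with 2 separate matches. The motif was present in 18.8% of 16 promoters of the list and in 4.29% of 10486 promoters of all genes tested, in 3.04% of those called higher and in 4.67% of those called lower. A match to these letters is a description of the sequence and not a bound site.

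Saa3, an acute-phase serum amyloid, stood at 6.31, 8.01 and 7.34 CPM under DMSO and 1.89, 2.75 and 1.81 CPM under MEHP (-1.74 ± 0.21, adjusted p = 4.5e-07). Ccl2, the main monocyte chemokine, stood at 29.3, 21.1 and 23.6 CPM and 11.6, 12 and 12.3 CPM (-1.04 ± 0.12, adjusted p = 2.42e-07), and Ccl7, a related monocyte chemokine, at 4.31, 4.03 and 3.61 CPM and 1.64, 2.45 and 2.38 CPM (-0.88 ± 0.20, adjusted p = 0.00172). In all 3 genes the groups were apart. Cxcl12, a homing signal for cells that carry Cxcr4, ran the other way, at 1127, 1172 and 1189.6 CPM and 1409, 1393 and 1427 CPM (0.28 ± 0.06, adjusted p = 0.0015). In TM4 the response of Cxcl12 was -1.25 ± 0.08, and the difference of responses (TM4 minus TM3) was -1.53 ± 0.10, adjusted p = 1.07e-11. The response of Ccl2 in TM4 was -0.85 ± 0.13, with a difference of 0.19 ± 0.18, adjusted p = 0.463. Ptges, which makes prostaglandin E2, rose from 1.91 ± 0.405 to 3.84 ± 0.732 CPM (SD, n = 3; 1.00 ± 0.24, adjusted p = 0.00343).

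Cytokine receptors and their feedback inhibitors changed in both directions, 6 higher and 6 lower of 37 (32.4%; median 0.0085, range 0.00315 to 0.0351, corrected -0.0324). Il2rb, a receptor chain for interleukins 2 and 15, stood at 2, 1.25 and 1.46 CPM under DMSO and 4.04, 3.47 and 3.44 CPM under MEHP, higher in every MEHP library (1.22 ± 0.20, adjusted p = 5.17e-05). Cish, a feedback inhibitor that STAT5 induces, stood at 4.73, 5.57 and 4.81 CPM and 1.51, 1.85 and 2.94 CPM (-1.26 ± 0.24, adjusted p = 0.000282). Osmr, the oncostatin M receptor, rose by 0.39 ± 0.06 (adjusted p = 2.07e-05) and Pias4, a SUMO ligase that restrains STATs, fell by 0.35 ± 0.08 (adjusted p = 0.00145). The lower members numbered 3 without MEHP replicate 2.

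Adhesion molecules that bind leukocytes and neurites were called in 2 cases higher and 4 lower of 24 (25%; median -0.01, range -0.068 to 0.0485, corrected -0.0435). Vcam1, a ligand for leukocyte integrins, stood at 147, 148 and 141 CPM under DMSO and 96.1, 95.2 and 99.3 CPM under MEHP (-0.59 ± 0.06, adjusted p = 1.14e-08). Flrt2, a fibronectin leucine-rich protein, stood at -0.53 ± 0.07 and Lrrn4 at -0.53 ± 0.06 (adjusted p = 3.55e-06 and 4.13e-08), while Alcam, a homophilic adhesion molecule, was higher (0.28 ± 0.06, adjusted p = 0.00151). Complement and coagulation genes were called in 3 and 4 of 28 cases (25%; median -0.08, range -0.085 to -0.0361, corrected -0.0934). Serpind1, heparin cofactor II, fell from 9.88 ± 1.57 to 4.38 ± 0.169 CPM (-1.17 ± 0.21, adjusted p = 0.000109), and C1s2, a complement C1s copy, stood at -0.37 ± 0.09 (adjusted p = 0.00627). Pros1, the anticoagulant protein S, rose by 0.55 ± 0.14 (adjusted p = 0.00499). C1s2 did not pass without MEHP replicate 1 (adjusted p = 0.0681). Of the 28, the lower calls were 2 without MEHP replicate 1.

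Growth factor and angiogenic ligand genes changed in both directions and included Angptl7. Of 38 tested 8 were called higher and 6 lower (36.8%; median 0.07, range -0.000941 to 0.114, corrected 0.0797). Angptl7 (ENSMUSG00000028989, chr4:148495183-148500460 on the - strand, mm10), a secreted angiopoietin-like glycoprotein found in matrix, stood at 485, 458 and 479 CPM under DMSO and 129, 114 and 123 CPM under MEHP. The groups lay far apart (-1.96 ± 0.06, adjusted p = 1.25e-21), and the response in TM4 was -1.93 ± 0.10, with a difference of responses of 0.02 ± 0.13, adjusted p = 0.944. Angptl4, a PPAR target that inhibits lipoprotein lipase, stood at 105, 96.3 and 98.1 CPM and 154, 144 and 147 CPM (0.57 ± 0.06, adjusted p = 2.28e-08). In TM4 it rose by 4.29 ± 0.10, and the lines differed by 3.72 ± 0.12, adjusted p = 1.02e-20. Angpt2, an angiopoietin that antagonizes the Tie2 receptor, fell from 2.93 ± 0.249 to 1.43 ± 0.379 CPM (-1.04 ± 0.27, adjusted p = 0.00792). Angpt2 lost its call without MEHP replicate 2 (adjusted p = 0.0631).

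Fibroblast growth factors and the inhibitors that MAP kinase signalling induces were called higher in 9 of 35 cases and lower in 1 (28.6%; median 0.07, range 0.0145 to 0.132, corrected 0.0408). Spry3, a Sprouty inhibitor of receptor tyrosine kinase signalling, stood at 2.61, 2.78 and 2.91 CPM under DMSO and 4.73, 4.97 and 5.75 CPM under MEHP (0.89 ± 0.17, adjusted p = 0.000404). Dusp4, a nuclear MAP kinase phosphatase, stood at 48.4, 43.4 and 44.7 CPM and 62.6, 70.4 and 71.1 CPM (0.58 ± 0.09, adjusted p = 1.61e-05), and Fgf7, keratinocyte growth factor, at 7.4, 7.95 and 5.76 CPM and 10.1, 11.1 and 10.3 CPM (0.57 ± 0.11, adjusted p = 0.000542). In these 3 genes all MEHP libraries were above all DMSO libraries. Dusp8, a related phosphatase, passed with overlapping groups (0.62 ± 0.21, adjusted p = 0.0459). Dusp8 missed the threshold without any DMSO replicate, MEHP replicate 1 or 3, or DMSO replicate 2 of TM4, in limma-voom and in the fit on the 6 TM3 libraries alone (adjusted p = 0.0559 to 0.252). Members called higher came to 5 without DMSO replicate 2, and those called lower came to 2 without DMSO replicate 3 and with the length and GC correction and 0 without DMSO replicate 2 or MEHP replicate 1 or 2.

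Matrix genes changed in both directions. The extracellular matrix holds fibrillar collagens, elastic fibres built on fibrillin, proteoglycans and laminin sheets, and cells bind it through integrins. Collagen chain genes were called higher in 8 of 30 cases and lower in 3 (36.7%; median 0.12). Col11a1, a minor fibrillar collagen that sets fibril diameter, stood at 37.7, 40.8 and 36.7 CPM under DMSO and 67.1, 67 and 67 CPM under MEHP (0.80 ± 0.06, adjusted p = 5.3e-11). Col1a2, a chain of type I collagen, stood at 5714, 5487 and 5644 CPM and 4725, 4693 and 4789 CPM (-0.25 ± 0.05, adjusted p = 0.000703). Both genes had groups that did not overlap, in opposite directions.

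Col9a3, a cartilage collagen chain, rose from 1.06 ± 0.131 to 2.42 ± 0.593 CPM (1.19 ± 0.25, adjusted p = 0.00104), Col7a1, the anchoring fibril collagen, from 0.882 ± 0.0837 to 1.56 ± 0.516 CPM (0.82 ± 0.28, adjusted p = 0.0411), and Col14a1, a fibril-associated collagen, fell from 1.74 ± 0.243 to 0.642 ± 0.319 CPM (-1.43 ± 0.41, adjusted p = 0.0146). Col7a1 lost its call without any DMSO replicate or MEHP replicate 2 or 3, with no filter on low counts, in limma-voom and in the fit on the 6 TM3 libraries alone (adjusted p = 0.058 to 0.264). Col14a1 missed the threshold without DMSO replicate 1 or MEHP replicate 2 or 3 (adjusted p = 0.0571 to 0.0819). The higher members numbered 5 without DMSO replicate 1 or MEHP replicate 3, and the lower members numbered 1 without DMSO replicate 1 or MEHP replicate 2. In TM4 4 of the 30 collagen genes were called higher and 15 lower, where 15.9% and 15% of all genes were. Col11a1 fell there by 0.76 ± 0.05, and the lines differed by -1.57 ± 0.08, adjusted p = 2.41e-15.

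Enzymes that process collagen were called higher in 6 of 24 cases and lower in 3 (37.5%; median 0.02, range 0.0112 to 0.0341, corrected 0.0134). The prolyl hydroxylase genes P4ha1 and P4ha2, whose products stabilize the triple helix, stood at 0.47 ± 0.05 and 0.54 ± 0.06 (adjusted p = 4.17e-08 and 4.29e-08). P4ha1 was measured at 307, 301 and 305 CPM under DMSO and 419, 421 and 422 CPM under MEHP. Plod2, a lysyl hydroxylase for cross-links, stood at 0.45 ± 0.07, adjusted p = 7.71e-06, and Adamts3, a procollagen N-proteinase, at 0.52 ± 0.10, adjusted p = 0.000176. Sparc, a collagen-binding matricellular protein, was lower at 3267, 3113 and 3275 CPM and 2900.4, 2857 and 2938 CPM (-0.15 ± 0.05, adjusted p = 0.0313). Sparc missed the threshold without DMSO replicate 1 or 3 or any MEHP replicate (adjusted p = 0.0766 to 0.147). Of the 24, the lower calls were 1 without DMSO replicate 1 or 3 or MEHP replicate 3. In TM4 0 of these genes were called higher and 19 lower, and for 15 of 24 the difference between lines was called, against 26.3% of all genes tested.

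Among elastic fibre genes 5 of 21 were called higher and 4 lower (42.9%; median 0.01, range 0.00987 to 0.126, corrected 0.012). Eln, which encodes tropoelastin, stood at 13.2, 10.5 and 12.7 CPM under DMSO and 4.04, 5.8 and 5.32 CPM under MEHP (-1.26 ± 0.20, adjusted p = 4.18e-05), less than the lowest DMSO value in each MEHP library. Ltbp4, which tethers latent TGF-beta to elastic fibres, stood at 1037, 1035 and 1048 CPM and 839, 814 and 845 CPM (-0.32 ± 0.05, adjusted p = 7.16e-05). The fibulins Efemp1 and Fbln1, which bind elastin, were higher. Efemp1 stood at 166, 154 and 156 CPM and 249, 245 and 252 CPM (0.65 ± 0.05, adjusted p = 2.73e-09), and Fbln1 rose by 0.44 ± 0.06 (adjusted p = 9.61e-07). Members called higher came to 3 without MEHP replicate 1.

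Proteoglycan and hyaluronan genes were called higher in 9 of 33 cases and lower in 4 (39.4%; median 0.21). Prg4, the joint lubricant lubricin, stood at 9.46, 8.69 and 7.41 CPM under DMSO and 18.4, 23.9 and 21 CPM under MEHP, higher in every MEHP library (1.30 ± 0.14, adjusted p = 7.59e-08). Gpc6, a glypican, rose by 0.86 ± 0.16 and Vcan, the large proteoglycan versican, by 0.64 ± 0.07 (adjusted p = 0.000242 and 8.56e-08). The small leucine-rich proteoglycans Lum and Dcn were lower, Lum at 9.4, 9.14 and 10.1 CPM and 6.75, 5.44 and 6.07 CPM (-0.65 ± 0.17, adjusted p = 0.00755) and Dcn at 903, 853 and 876 CPM and 714, 704 and 688 CPM (-0.32 ± 0.06, adjusted p = 7.39e-05). Lum lost its call without MEHP replicate 2 (adjusted p = 0.0608). The lower members numbered 2 without DMSO replicate 3 or MEHP replicate 1 or 2.

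Matrix proteases and their inhibitors were called higher in 8 of 48 cases and lower in 5 (27.1%; median 0.14). Mmp14, the membrane-anchored collagenase, stood at 414, 415 and 429 CPM under DMSO and 255, 255 and 273 CPM under MEHP (-0.68 ± 0.05, adjusted p = 2.56e-11). Mmp9, a gelatinase, stood at 9.77, 9.65 and 11.8 CPM and 5.11, 5.5 and 4.69 CPM (-1.02 ± 0.17, adjusted p = 4.22e-05), and Timp2, an inhibitor that also takes part in Mmp2 activation by Mmp14, at 1318, 1318 and 1349 CPM and 1076, 1045 and 1079 CPM (-0.32 ± 0.05, adjusted p = 8.82e-06). All 3 were lower in every MEHP library. Adamts5, an aggrecanase, ran higher at 230, 224 and 214 CPM and 334, 335 and 335 CPM (0.59 ± 0.06, adjusted p = 1e-08), and Adam23, a member without protease activity, at 0.84 ± 0.08 (adjusted p = 9.13e-09). Of the 48, the higher calls were 5 without MEHP replicate 3.

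Integrin and laminin genes were called higher in 7 of 26 cases and lower in 0 (26.9%; median 0.1, range 0.0873 to 0.124, corrected 0.0518). Itga1, the collagen-binding alpha 1 chain, stood at 93.5, 105 and 98.9 CPM under DMSO and 187, 179 and 178 CPM under MEHP (0.87 ± 0.07, adjusted p = 3.32e-09). Nid1, which links laminin to collagen IV, stood at 134, 152 and 140.3 CPM and 219.9, 203 and 226 CPM (0.60 ± 0.07, adjusted p = 1.62e-07). Itga7, a laminin receptor chain, rose by 0.44 ± 0.07 and the laminin chain Lamc1 by 0.30 ± 0.06 (adjusted p = 3.87e-05 and 0.00163). In TM4 1 of these genes was called higher and 11 lower. Fn1, fibronectin, showed the largest gain in CPM of any gene, from 11068, 12918 and 11339 CPM to 15714, 14727 and 14723 CPM, but did not pass (0.35 ± 0.11, adjusted p = 0.0616). DMSO replicate 2 lay between the other DMSO libraries and the MEHP ones, and without it the adjusted p was 0.0328. Fn1 also passed without DMSO replicate 1 of TM4 or MEHP replicate 1 or 3 of TM4, with RLE factors, with the stricter filter, in DESeq2, in limma-voom, in the fit on the 6 TM3 libraries alone and with the length and GC correction (adjusted p = 0.000209 to 0.0482).

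Contractile actin genes were called higher in 8 of 38 cases and lower in 4 (31.6%; median 0.12, range 0.063 to 0.123, corrected 0.109). Mylk, the myosin light chain kinase, stood at 667, 799 and 681 CPM under DMSO and 459, 433 and 441 CPM under MEHP (-0.69 ± 0.07, adjusted p = 6.98e-08). Acta2, smooth muscle actin, stood at 31, 27.4 and 33.2 CPM and 38.6, 39.5 and 38.7 CPM (0.35 ± 0.07, adjusted p = 0.000542), and Actn1 and Myh9, alpha-actinin and nonmuscle myosin, at 0.29 ± 0.05 and 0.25 ± 0.05 (adjusted p = 0.000167 and 0.00114). Acta1, skeletal actin, was called higher, but it had 0 counts in each DMSO library and 4, 4 and 2 counts in the MEHP libraries, too few for a fold. Acta1 missed the threshold without DMSO replicate 1 or 3 (adjusted p = 0.0521 to 0.0538). In TM4 2 were called higher and 25 lower. The difference between lines was called for 24 of 38, against 26.3% of all genes tested. Acta2 differed between the lines by -1.57 ± 0.09, adjusted p = 5.53e-14. Members called higher came to 5 without DMSO replicate 1 or 2 or MEHP replicate 2 and 4 without MEHP replicate 3.

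Genes of the acid compartments were called lower more often than higher. The vacuolar ATPase is the rotary proton pump that acidifies lysosomes, and lysosomal hydrolases digest lipids, glycans and proteins at low pH. Many genes of both groups are known to carry E-box elements bound by factors of the TFEB family. Of 20 V-ATPase subunit genes 12 were called lower and 0 higher, 60% against 16.5%, with a median of -0.25. In 18 of the 20 the MEHP libraries lay below all DMSO libraries, against 17.2% of all genes tested. Of 49 lysosomal genes 16 were called lower and 4 higher (40.8%; median -0.1). The higher members numbered 2 without DMSO replicate 3 or MEHP replicate 3 and 1 without MEHP replicate 1. The promoters of 3 genes called lower are shown for the E-box CACGTG, set in capitals, from the same source and window.
Atp6v0b: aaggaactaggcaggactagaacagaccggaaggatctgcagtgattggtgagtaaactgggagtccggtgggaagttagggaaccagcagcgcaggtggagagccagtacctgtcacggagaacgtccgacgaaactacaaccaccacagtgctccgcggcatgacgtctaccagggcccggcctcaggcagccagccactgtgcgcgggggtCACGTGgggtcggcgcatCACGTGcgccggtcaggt
Glb1: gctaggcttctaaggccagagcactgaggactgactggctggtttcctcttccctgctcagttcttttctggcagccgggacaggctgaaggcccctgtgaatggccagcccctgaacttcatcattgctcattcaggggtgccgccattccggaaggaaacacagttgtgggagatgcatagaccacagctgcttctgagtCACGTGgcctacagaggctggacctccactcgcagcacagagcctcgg
Gaa: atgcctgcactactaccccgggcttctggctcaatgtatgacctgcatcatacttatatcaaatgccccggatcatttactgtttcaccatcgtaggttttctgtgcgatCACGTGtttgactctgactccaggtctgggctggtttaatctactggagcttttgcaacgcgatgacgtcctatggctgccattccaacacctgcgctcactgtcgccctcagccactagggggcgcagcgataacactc

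These stretches are chr4:117887330-117887579 (- strand), chr9:114400828-114401077 (+ strand) and chr11:119267713-119267962 (+ strand). CACGTG, which reads the same on both strands and contains the hypoxia response core ACGTG, was present in 30% of 40 promoters of the lysosomal list and 13.3% of 15 of the V-ATPase list. It was present in 8.33% of all 10486 promoters, in 6.75% of those of genes called higher and in 12.8% of those called lower.

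Atp6v0b, a chain of the membrane-bound proton channel, stood at 67.2, 62.8 and 68.4 CPM under DMSO and 51, 52.8 and 51.2 CPM under MEHP (-0.36 ± 0.06, adjusted p = 5.07e-05). Atp6v0d1, the subunit that couples the channel to the stalk, stood at 94.8, 89.8 and 97.4 CPM and 72.1, 67.2 and 68.2 CPM (-0.44 ± 0.06, adjusted p = 1.17e-06), and Atp6ap1, an accessory subunit, at 75.4, 70.6 and 71.7 CPM and 59.2, 54.9 and 52.5 CPM (-0.39 ± 0.06, adjusted p = 1.57e-05). None of these groups overlapped. The channel genes Atp6v0c and Atp6v0e2 were lower at -0.66 ± 0.16, adjusted p = 0.00492 and at -0.72 ± 0.23, adjusted p = 0.0254. Atp6v0e2 missed the threshold without DMSO replicate 1 or 3 or MEHP replicate 2 or 3 and in limma-voom (adjusted p = 0.0514 to 0.142). In TM4 2 of the 20 genes were called higher and 1 lower, and the median there was 0.0444. The difference between lines was called for 10 of the 20, against 26.3% of all genes tested. For Atp6v0d1 the difference was 0.67 ± 0.08, adjusted p = 2.56e-07.

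Ctsa, cathepsin A, which protects the galactosidase complex, stood at 169, 158 and 163 CPM under DMSO and 117, 109.9 and 116 CPM under MEHP (-0.52 ± 0.06, adjusted p = 1.75e-07). Glb1, beta-galactosidase, stood at 82.6, 77.6 and 79.2 CPM and 65.3, 64.9 and 65.9 CPM (-0.29 ± 0.06, adjusted p = 0.000729), and Gaa, the acid glucosidase that degrades glycogen, at 521, 524 and 526 CPM and 437, 446 and 441 CPM (-0.25 ± 0.05, adjusted p = 0.000476). Each was lower in all MEHP libraries. Neu1, the sialidase of the same complex as Ctsa and Glb1, stood at -0.34 ± 0.06, adjusted p = 0.000286, and the membrane protein Lamp1 at -0.25 ± 0.05, adjusted p = 0.000429. Ctsd, cathepsin D, was lower by a small margin (-0.16 ± 0.05, adjusted p = 0.0395), and Arsb, a sulfatase for glycosaminoglycans, was higher (0.42 ± 0.12, adjusted p = 0.0159). Ctsd did not pass without DMSO replicate 1 or 3, any MEHP replicate, or DMSO replicate 1 of TM4 and with the length and GC correction (adjusted p = 0.050011 to 0.204). Arsb missed the threshold without DMSO replicate 3 or MEHP replicate 1 (adjusted p = 0.107 to 0.209).

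Proteasome genes, which encode the complex that degrades ubiquitin-tagged proteins, were called lower in 11 of 47 cases and higher in 1 (25.5%; median -0.13). Psmc3, an ATPase of the regulatory particle, stood at 142, 124 and 135 CPM under DMSO and 99, 97.3 and 104 CPM under MEHP (-0.42 ± 0.07, adjusted p = 4.41e-05). Psmb10, a catalytic subunit of the immunoproteasome, was lower (-0.53 ± 0.09, adjusted p = 4.33e-05), as was the assembly factor Pomp (-0.29 ± 0.07, adjusted p = 0.00312), while Psmb9, another immunoproteasome subunit, was higher with overlapping groups (0.63 ± 0.19, adjusted p = 0.0211). Psmb9 missed the threshold without DMSO replicate 3 or MEHP replicate 2 or 3 and in limma-voom (adjusted p = 0.0646 to 0.167). Of the 47, the higher calls were 2 without DMSO replicate 2 and 0 without DMSO replicate 3 or MEHP replicate 2 or 3, and the lower calls were 3 without DMSO replicate 1 or MEHP replicate 1, 5 without DMSO replicate 3 or MEHP replicate 2 and 7 without MEHP replicate 3. In TM4 16 were called higher and 1 lower. The difference of responses was called for 20 of 47, against 26.3% of all genes tested.

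Ribosomal protein genes were described for their low share called. Among 82 genes of the cytosolic ribosome list 1 was called higher and 1 lower (2.44%, median 0.01, range -0.0191 to 0.0418, corrected 0.00856). These were Rpl24 (0.69 ± 0.24, adjusted p = 0.0475) and the Rpl7-like gene Rpl7l1 (-0.21 ± 0.06, adjusted p = 0.00883). Rpl24 was counted at 1.58, 2.33 and 2.15 CPM under DMSO and 3.53, 2.99 and 3.31 CPM under MEHP, and reads of such genes can be shared with processed pseudogenes, so this value is uncertain. Rpl24 missed the threshold without DMSO replicate 1 or 3, any MEHP replicate, or DMSO replicate 1 or 2 of TM4, with RLE factors, with no filter on low counts and in DESeq2 (adjusted p = 0.050013 to 0.206). Members called higher came to 0 without DMSO replicate 1 or 3 or any MEHP replicate, with RLE factors and in DESeq2, and those called lower came to 2 without DMSO replicate 2 or MEHP replicate 3. Among 76 of the mitochondrial ribosome 0 were called higher and 4 lower (5.26%; median -0.11), Mrps18a (-0.30 ± 0.09, adjusted p = 0.0292), Mrpl54 (-0.28 ± 0.09, adjusted p = 0.0339), Mrpl3 (-0.28 ± 0.08, adjusted p = 0.0141) and Mrpl11 (-0.27 ± 0.09, adjusted p = 0.0409). Mrps18a did not pass without DMSO replicate 1 or MEHP replicate 2 or 3 (adjusted p = 0.0656 to 0.192). Mrpl54 did not pass without any DMSO replicate or MEHP replicate 1 or 3 and with the length and GC correction (adjusted p = 0.0531 to 0.199). Mrpl3 did not pass without DMSO replicate 3 or MEHP replicate 2 or 3 (adjusted p = 0.0594 to 0.15). Mrpl11 lost its call without DMSO replicate 1 or 3 or MEHP replicate 1 or 2 and in limma-voom (adjusted p = 0.0553 to 0.244). The lower members numbered 2 without DMSO replicate 1 or any MEHP replicate, 1 without DMSO replicate 3 and 13 with the replicate block. In 21 of the 76 mitochondrial ribosome genes the MEHP libraries lay below all DMSO libraries, and in 0 above them. Over all genes tested these shares were 17.2% and 18.1%. In TM4 29 mitochondrial ribosome genes were called higher and 1 lower. The difference between lines was called for 35 of 76, against 26.3% of all genes tested.

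In amino acid supply, more genes were called higher than lower. Plasma membrane carriers bring in amino acids, and many of them, with the tRNA synthetases, are known targets of ATF4, the transcription factor of the amino acid response. Of 27 tested transporters 9 were called higher and 3 lower (44.4%; median 0.1, range 0.0757 to 0.155, corrected 0.0118). Of 24 tRNA synthetases 6 were called higher and 1 lower (29.2%; median 0.11, range 0.0738 to 0.129, corrected 0.0537). Of the 24, the lower calls were 0 without DMSO replicate 1 or MEHP replicate 2. The promoter of Slc7a11 is shown because it holds 2 copies, 1 on each strand, of the composite element TGATGNAA, in capitals.
Slc7a11: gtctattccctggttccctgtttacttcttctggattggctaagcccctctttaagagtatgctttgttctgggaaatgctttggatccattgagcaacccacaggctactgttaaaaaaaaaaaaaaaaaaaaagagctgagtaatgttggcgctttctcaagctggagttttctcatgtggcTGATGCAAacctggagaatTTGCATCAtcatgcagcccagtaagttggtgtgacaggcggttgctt

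This stretch is chr3:50443614-50443863 (- strand). The element was present in 10.5% of 19 transporter promoters, in 18.8% of 16 synthetase promoters and in 1.99% of all 10486. Slc7a11, the cystine importer, stood at 4.06, 2.5 and 3.42 CPM under DMSO and 4.6, 5.8 and 5.19 CPM under MEHP (0.65 ± 0.15, adjusted p = 0.00311). Slc1a4, a carrier for serine and alanine, stood at 38.7, 32.2 and 29.2 CPM and 45.8, 48.5 and 47.8 CPM (0.51 ± 0.09, adjusted p = 0.000317), and Slc7a1, a carrier for arginine and lysine, at 90.4, 80.6 and 79.8 CPM and 116, 115 and 114 CPM (0.46 ± 0.07, adjusted p = 2.89e-05). The 3 genes had no overlap between groups. Slc1a3, a glutamate carrier, was higher (0.46 ± 0.13, adjusted p = 0.0121). Slc1a3 lost its call without DMSO replicate 3 or MEHP replicate 1 (adjusted p = 0.0637 to 0.0643).

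Among the synthetases Cars, for cysteine, stood at 48.5, 45.4 and 41.6 CPM under DMSO and 58.1, 64.1 and 60.4 CPM under MEHP (0.43 ± 0.06, adjusted p = 7.31e-06). Mars, for methionine, rose by 0.40 ± 0.05 and Iars, for isoleucine, by 0.27 ± 0.07 (adjusted p = 3.09e-06 and 0.00428). Tarsl2, a threonine synthetase-like gene, was higher (0.47 ± 0.15, adjusted p = 0.0301). Tarsl2 lost its call without DMSO replicate 2 or 3 or MEHP replicate 1 or 3 and in limma-voom (adjusted p = 0.0579 to 0.212). In TM4 11 of the 24 synthetase genes were called higher and 0 lower, against 15.9% and 15% of all genes.

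Genes of serine, one-carbon and nucleotide synthesis were called higher in 14 of 53 cases and lower in 7 (39.6%; median 0.05, range 0.0395 to 0.079, corrected 0.0196). Aldh1l2, a mitochondrial folate dehydrogenase that yields NADPH, stood at 22.8, 27.4 and 21.3 CPM under DMSO and 43.8, 44.3 and 45 CPM under MEHP (0.89 ± 0.10, adjusted p = 3.94e-06). Its response in TM4 was -0.01 ± 0.08, and the lines differed by -0.90 ± 0.13, adjusted p = 3.66e-05. Psph, the last step of serine synthesis, stood at 0.42 ± 0.07, adjusted p = 4.46e-05, Impdh1, of guanine nucleotide synthesis, at 0.43 ± 0.07, adjusted p = 5.97e-05, and Rrm2, of deoxynucleotide synthesis, at 0.51 ± 0.08, adjusted p = 1.67e-05. Members called higher came to 9 without MEHP replicate 2, and those called lower came to 4 without any DMSO replicate or MEHP replicate 1 and 3 without MEHP replicate 3.

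Aldehyde, carbonyl and retinoid genes were called higher in 13 of 59 cases and lower in 4 (28.8%; median 0.06, range 0.03 to 0.0801, corrected 0.0392). Adh7, an alcohol dehydrogenase that accepts retinol, stood at 26.6, 26.5 and 23.5 CPM under DMSO and 48.1, 41.4 and 45.1 CPM under MEHP (0.81 ± 0.09, adjusted p = 4.49e-08). Aox1, aldehyde oxidase, stood at 25.2, 34.4 and 28.1 CPM and 53.2, 56.9 and 50 CPM (0.87 ± 0.10, adjusted p = 1.17e-06), and Stra6, a receptor for retinol uptake, at 9.71, 10.4 and 11.8 CPM and 18.4, 17.2 and 17.9 CPM (0.74 ± 0.13, adjusted p = 0.000121). All MEHP libraries were above all DMSO libraries in these genes. The lower members numbered 2 without DMSO replicate 1 or MEHP replicate 2. The difference between lines was -0.70 ± 0.13, adjusted p = 0.000142 for Adh7 and -0.88 ± 0.19, adjusted p = 0.00116 for Aox1.

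Glutathione and thioredoxin genes split into 10 called higher and 8 lower of 54 (33.3%; median -0.00126, range -0.00462 to 0.0269, corrected -0.00808). Gsta3, a glutathione transferase that in human also isomerizes steroids, stood at 44.3, 35.6 and 41.7 CPM under DMSO and 71.6, 75.6 and 70.5 CPM under MEHP (0.84 ± 0.09, adjusted p = 3.63e-08). Ggt5, which cleaves extracellular glutathione conjugates, stood at 24.1, 29.4 and 22.5 CPM and 16.3, 15.6 and 14.1 CPM (-0.73 ± 0.11, adjusted p = 2.07e-05). Gsto2, an omega class transferase, was higher (0.74 ± 0.26, adjusted p = 0.0481). Gstp1 was called lower at 1.03, 1.36 and 2.72 CPM and 1.01, 0.778 and 0.625 CPM (-1.06 ± 0.30, adjusted p = 0.0145), but near-identical copies can share its reads, so this value is uncertain. Gsto2 missed the threshold without any single TM3 library or DMSO replicate 2 of TM4, with RLE factors, with no filter on low counts, in DESeq2, in limma-voom and in the fit on the 6 TM3 libraries alone (adjusted p = 0.050167 to 0.213). Gstp1 lost its call without DMSO replicate 3 or MEHP replicate 2 or 3 and in limma-voom (adjusted p = 0.0618 to 0.272).

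Tricarboxylic acid cycle and anaplerotic genes were called higher in 6 of 38 cases and lower in 4 (26.3%; median -0.04, range -0.0562 to -0.0243, corrected -0.0539). Pck2, mitochondrial phosphoenolpyruvate carboxykinase, stood at 131, 106 and 116 CPM under DMSO and 161, 169 and 181 CPM under MEHP (0.53 ± 0.07, adjusted p = 1.92e-06), and its response in TM4 was 0.54 ± 0.06. Gls2, a mitochondrial enzyme that makes glutamate from glutamine, rose by 0.65 ± 0.17 (adjusted p = 0.00817). Mpc2, a chain of the mitochondrial pyruvate carrier, fell by 0.32 ± 0.07 (adjusted p = 0.00243). Gls2 did not pass without MEHP replicate 3 (adjusted p = 0.0729). Of the 38, the lower calls were 2 without DMSO replicate 1 or MEHP replicate 2.

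DNA repair genes were called almost all in one direction. The Fanconi anaemia and homologous recombination proteins mend interstrand cross-links and broken forks, and they are made mainly by dividing cells. Of 77 tested 27 were called higher and 2 lower (37.7%; median 0.19). Fancd2, whose ubiquitination starts cross-link repair, stood at 16.7, 18.7 and 15.5 CPM under DMSO and 28.9, 29.1 and 27.1 CPM under MEHP (0.74 ± 0.09, adjusted p = 6.95e-07). Neil3, a DNA glycosylase of replicating cells, stood at 14.3, 12.7 and 14.1 CPM and 21.8, 23.9 and 21.9 CPM (0.72 ± 0.11, adjusted p = 1.6e-05), and Bard1, the partner of Brca1, at 11.4, 12.5 and 11.9 CPM and 20.7, 16.5 and 21.6 CPM (0.71 ± 0.11, adjusted p = 3.01e-05). The groups were apart in each. Brip1, a helicase that binds Brca1, rose by 0.68 ± 0.10 (adjusted p = 7.36e-06). Called lower were Apex1 and Ercc1, of base and nucleotide excision repair. Members called lower came to 1 without DMSO replicate 1 or MEHP replicate 3 and with the length and GC correction and 0 without DMSO replicate 3 or MEHP replicate 2. In TM4 33 of the 77 were called higher and 8 lower, against 15.9% and 15% of all genes.

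Motor protein genes were called higher in 17 of 58 cases and lower in 3 (34.5%; median 0.1, range 0.0572 to 0.145, corrected 0.0462). Kif14, a kinesin of cytokinesis, stood at 21.8, 21.4 and 20.2 CPM under DMSO and 31, 33.3 and 35.7 CPM under MEHP (0.66 ± 0.09, adjusted p = 1.74e-06), and Kif20b, of the midbody, at 0.55 ± 0.08 (adjusted p = 1.84e-05). Motors that are not mitotic were among the 4 largest. Kif21b, a kinesin that regulates microtubule growth, stood at 27.8, 30.8 and 29.9 CPM and 42.8, 46.5 and 45 CPM (0.60 ± 0.08, adjusted p = 2.01e-06), and Dync2h1, the dynein of transport inside cilia, at 25, 28.1 and 23 CPM and 41.2, 40 and 38.3 CPM (0.65 ± 0.09, adjusted p = 5.44e-06). The lower members numbered 5 in DESeq2 and 6 with the length and GC correction. Among 68 cilium genes 2 were called higher and 2 lower (5.88%; median -0.00416, range -0.0217 to 0.0209, corrected -0.0509), below the background. These were Ccno, needed for multiple cilia (1.26 ± 0.35, adjusted p = 0.0115), Pkd2, a calcium channel (0.20 ± 0.06, adjusted p = 0.0109), B9d2, of the ciliary transition zone (-0.42 ± 0.13, adjusted p = 0.0204), and Smo, the Hedgehog signal transducer (-0.15 ± 0.05, adjusted p = 0.0275). Ccno did not pass without DMSO replicate 1 or MEHP replicate 3 (adjusted p = 0.0686 to 0.0745). Pkd2 missed the threshold without DMSO replicate 1 or MEHP replicate 3 and with the length and GC correction (adjusted p = 0.0538 to 0.111). B9d2 lost its call without DMSO replicate 1 or 3 or MEHP replicate 2 or 3 (adjusted p = 0.0622 to 0.113). Smo lost its call without any single TM3 library (adjusted p = 0.0603 to 0.147). Tubb4a, a beta-tubulin best known from brain, rose from 1.5 ± 0.254 to 4.26 ± 0.67 CPM (1.50 ± 0.22, adjusted p = 1.03e-05).

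Circadian clock genes were called higher in 6 of 22 cases and lower in 2 (36.4%; median 0.08, range 0.0499 to 0.113, corrected 0.0241). Per3, a period gene of the clock's negative arm, stood at 8.49, 10.6 and 10.4 CPM under DMSO and 17.1, 17.5 and 15.8 CPM under MEHP (0.77 ± 0.11, adjusted p = 5.44e-06). Per2, of the same arm, stood at 3.46, 6.47 and 5.82 CPM and 7.06, 7.24 and 10.1 CPM, with DMSO replicate 1 lowest (0.63 ± 0.19, adjusted p = 0.0257). Clock, of the positive arm, rose by 0.28 ± 0.07 and Cry1, a repressor, stood at -0.26 ± 0.09 (adjusted p = 0.00496 and 0.0444). The time of day of harvest is not given in the sources used here. Per2 did not pass without DMSO replicate 1 or MEHP replicate 3 (adjusted p = 0.175 to 0.176). Clock lost its call with the length and GC correction (adjusted p = 0.0608). Cry1 lost its call without any DMSO replicate, MEHP replicate 1 or 2, or DMSO replicate 1 or 3 of TM4, with no filter on low counts, in limma-voom and in the fit on the 6 TM3 libraries alone (adjusted p = 0.0529 to 0.179). Of the 22, the higher calls were 2 without DMSO replicate 1 or MEHP replicate 3, and the lower calls were 0 without DMSO replicate 1 or 3 or MEHP replicate 1 or 2 and 1 without DMSO replicate 2. Per2 differed between the lines by -1.65 ± 0.26, adjusted p = 4.16e-05.

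Histone genes are mostly not polyadenylated, and capture on poly-T beads limits what their counts mean. Of 19 tested 2 were called higher and 3 lower (26.3%; median 0.1, range 0.0399 to 0.134, corrected 0.0878). H3f3a, a replacement histone with a polyadenylated transcript, stood at 185, 176 and 175 CPM under DMSO and 142, 144 and 146 CPM under MEHP (-0.31 ± 0.05, adjusted p = 8.89e-05). H2afj and H3f3b were lower (-0.42 ± 0.11, adjusted p = 0.0195, and -0.19 ± 0.07, adjusted p = 0.0486) and the linker histone gene Hist1h1c higher (0.31 ± 0.11, adjusted p = 0.0455), the last 2 with overlapping groups. H2afj missed the threshold without DMSO replicate 1 or 3 or MEHP replicate 1 or 2 (adjusted p = 0.0765 to 0.0855). H3f3b lost its call without DMSO replicate 1 or 3, any MEHP replicate, DMSO replicate 1 or 2 of TM4, or MEHP replicate 2 of TM4, with upper-quartile factors and in limma-voom (adjusted p = 0.050023 to 0.303). Hist1h1c did not pass without DMSO replicate 2 or 3, MEHP replicate 1 or 3, DMSO replicate 2 of TM4, or MEHP replicate 2 of TM4, with RLE factors, in DESeq2 and in the fit on the 6 TM3 libraries alone (adjusted p = 0.0524 to 0.282). Members called higher came to 0 without DMSO replicate 2 or 3 or MEHP replicate 1 or 3, with RLE factors and in DESeq2 and 1 without MEHP replicate 2, and those called lower came to 1 without DMSO replicate 1 or 3 or MEHP replicate 1 or 2.

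**Figure D4:**
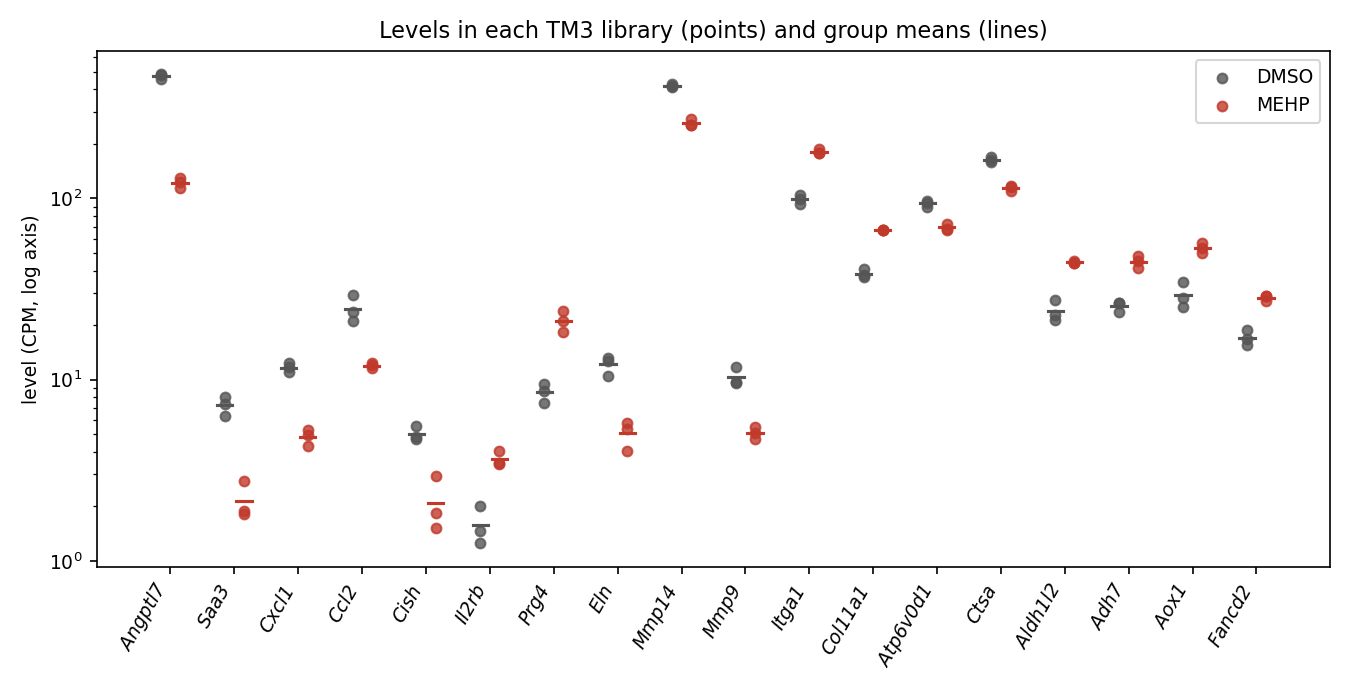
Level of 18 genes in each of the 3 DMSO (grey) and 3 MEHP (red) TM3 libraries, as points on a log axis in CPM, with short lines at the group means. The groups do not overlap in any of these genes, and Angptl7 goes from 458 to 485 CPM under DMSO to 114 to 129 CPM under MEHP.

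The largest folds were mostly in genes of low level. Besides Tubb4a, Prg4, Ccno, Il2rb, Col9a3 and Ptges, the genes at 2 CPM or more with the largest rises included Sh3rf2, a scaffold with ubiquitin ligase domains, at 1.18 ± 0.24, Pxdc1 at 1.06 ± 0.15, Faxc at 1.05 ± 0.24 and Dqx1 at 1.00 ± 0.18 (adjusted p = 0.000703, 5.44e-06, 0.0022 and 0.000177). Sbk3, Pex5l and S100a7a rose by 1.13 ± 0.32, 1.01 ± 0.30 and 1.01 ± 0.28 (adjusted p = 0.0121, 0.0203 and 0.00979). None of these 7 genes exceeded 10 CPM in a TM3 library. Sbk3 did not pass without DMSO replicate 2 or MEHP replicate 1 (adjusted p = 0.0786 to 0.0846). Pex5l lost its call without DMSO replicate 1 or 3 or MEHP replicate 2 (adjusted p = 0.0699 to 0.208). S100a7a lost its call without DMSO replicate 1 or 3 or MEHP replicate 2 (adjusted p = 0.05004 to 0.0898).

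Among the largest falls Fam180a, a secreted protein of little known function, stood at 98.2, 93.9 and 89.6 CPM under DMSO and 42.8, 46.5 and 41.4 CPM under MEHP (-1.11 ± 0.09, adjusted p = 3.21e-10). Eepd1, a nuclease-like protein induced by liver X receptors, stood at 24.8, 22.5 and 26.1 CPM and 10.7, 12.3 and 12.2 CPM (-1.06 ± 0.13, adjusted p = 3.27e-07). Both had groups far apart. At lower levels fell Tm4sf5, a tetraspanin-like protein (-1.87 ± 0.39, adjusted p = 0.00119), Ccdc187 (-1.26 ± 0.29, adjusted p = 0.00224), Otor, a small secreted protein of the inner ear (-1.19 ± 0.31, adjusted p = 0.00794), Sybu, which links vesicles to kinesin (-1.16 ± 0.26, adjusted p = 0.00204), and Serpinb1a, an inhibitor of neutrophil proteases (-1.04 ± 0.37, adjusted p = 0.0477). Otor did not pass without DMSO replicate 2 or MEHP replicate 3 (adjusted p = 0.0544 to 0.058). Serpinb1a did not pass without any single TM3 library or DMSO replicate 2 of TM4 and with no filter on low counts (adjusted p = 0.050231 to 0.188).

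By the change in CPM the leading gains were of abundant transcripts. Scd2, a fatty acid desaturase, stood at 1862, 1884 and 1951 CPM under DMSO and 2640.1, 2609 and 2691 CPM under MEHP (0.48 ± 0.06, adjusted p = 1.76e-07). Eef2, the elongation factor that moves the ribosome, rose by 0.15 ± 0.05 and Ahnak, a giant scaffold protein, by 0.46 ± 0.10 (adjusted p = 0.028 and 0.00556). Top2a, the topoisomerase of dividing cells, stood at 342, 354 and 336 CPM and 514, 538 and 534 CPM (0.62 ± 0.06, adjusted p = 3.68e-09), and Ccnd2, cyclin D2, at 547, 569 and 537 CPM and 745, 719.8 and 729 CPM (0.41 ± 0.05, adjusted p = 5.86e-07). Ermp1, an endoplasmic reticulum metallopeptidase, Pgk1, of glycolysis, and Srrm2, a splicing scaffold, rose by 0.50 ± 0.05, 0.53 ± 0.06 and 0.37 ± 0.11 (adjusted p = 6.2e-09, 3.63e-08 and 0.0481). Eef2 did not pass without DMSO replicate 2 or 3, any MEHP replicate, or DMSO replicate 2 of TM4 and with RLE factors (adjusted p = 0.0515 to 0.117). Srrm2 lost its call without DMSO replicate 1 or 3, any MEHP replicate, DMSO replicate 3 of TM4, or MEHP replicate 2 of TM4 (adjusted p = 0.0662 to 0.131).

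The leading losses included matrix transcripts and the mitochondrial transcript mt-Cytb. After Col1a2 came mt-Cytb, the cytochrome b gene of the mitochondrial genome, at 2792, 2908 and 2825 CPM under DMSO and 2144, 2118 and 2106 CPM under MEHP (-0.42 ± 0.05, adjusted p = 6.61e-07). Ecm1, an extracellular matrix glycoprotein, stood at 775, 671 and 732 CPM and 458, 406 and 391 CPM (-0.80 ± 0.08, adjusted p = 1.38e-06). Aebp1, a collagen-binding carboxypeptidase-like protein, fell by 0.21 ± 0.05 and Upk3b, uroplakin 3B, by 0.30 ± 0.06 (adjusted p = 0.00224 and 0.000532). In each of these genes all MEHP libraries were below all DMSO libraries. Of the 24 tested genes of the mitochondrial genome, 2 were called higher and 4 lower, against 9.04% and 7.43% of all genes tested.

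The TM3 response was then set beside that of TM4, whose control and MEHP libraries entered the same fit. In TM4 4856 genes were called (30.9%), and the difference of responses was called for 4134 genes (26.3%). Of the genes called in TM3, 1491 (57.68%) were also called for the difference. The difference contains the TM3 response by which these genes were chosen, so this share is partly set by that choice. There were 1057 genes called in both lines, 40.89% of the TM3 calls and 21.77% of the TM4 calls. Of them 239 were higher in both, 239 lower in both, 365 higher in TM3 and lower in TM4, and 214 lower in TM3 and higher in TM4. Across all 15700 genes the log2 fold changes of the lines correlated at -0.0246 (Pearson), a description over genes that share libraries within each line.

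**Figure D5:**
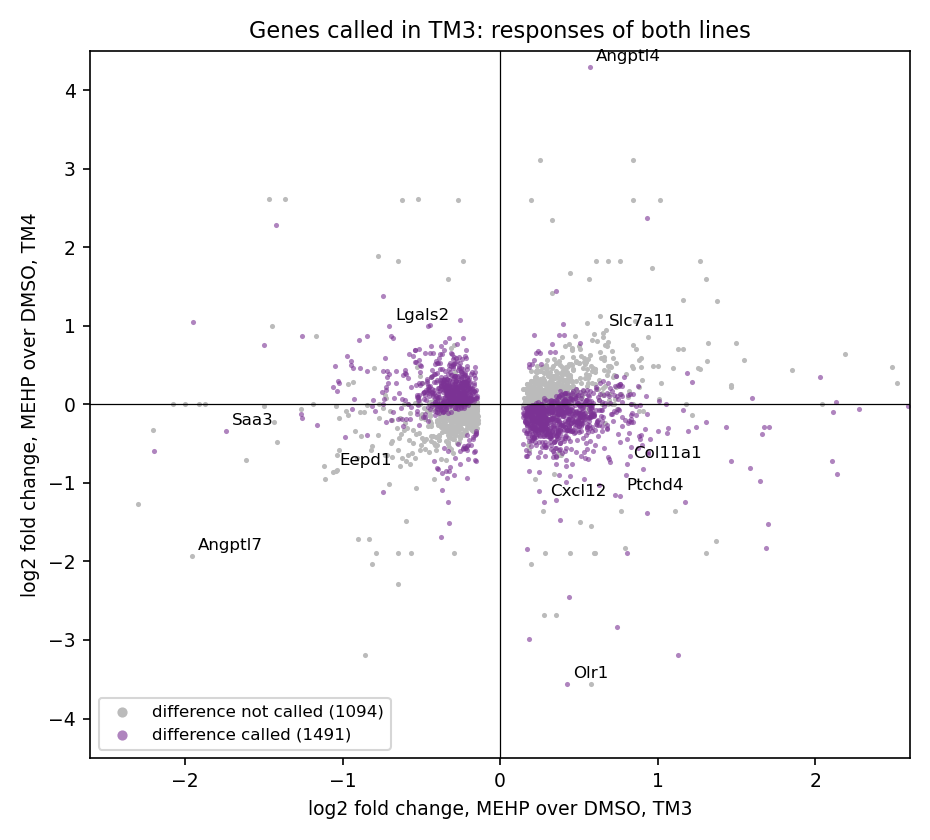
Log2 fold change of MEHP over DMSO in TM3 (horizontal) against that in TM4 (vertical) for the 2585 genes called in TM3; purple marks the 1491 genes whose responses differed between lines, and 8 genes lie outside the frame. Genes fill all 4 quadrants, with Angptl7 near the same value on both axes and Angptl4 far higher in TM4.

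Among named genes at 2 CPM or more that were called in TM3 and for the difference, the largest gaps with TM3 above TM4 were in Olr1, a scavenger receptor for oxidized lipoprotein, Tmem255a, Pcdh9, a protocadherin, Il31ra, an interleukin receptor chain, Ptchd4 and Nrp1. In TM3 Olr1 stood at 35.7, 36.6 and 39 CPM under DMSO and 51, 44.6 and 54 CPM under MEHP (0.43 ± 0.09, adjusted p = 0.00101), Pcdh9 at 0.44 ± 0.10, adjusted p = 0.00276, Tmem255a at 0.74 ± 0.19, adjusted p = 0.00534 and Il31ra at 0.81 ± 0.24, adjusted p = 0.0164. Their TM4 means were 0.0842 and 0 CPM for Olr1 and at most 0.242 CPM for the other 3, so these gaps rest on a few counts. Il31ra lost its call without DMSO replicate 3 or MEHP replicate 1 or 2 (adjusted p = 0.0768 to 0.105). Ptchd4, a patched-like protein, stood in TM3 at 5.03, 5 and 4.94 CPM and 7.32, 8.85 and 9.19 CPM (0.76 ± 0.17, adjusted p = 0.00148), and the difference was -1.93 ± 0.27, adjusted p = 2.79e-06. Nrp1, a coreceptor for semaphorins and VEGF, stood at 67.6, 69.2 and 66.7 CPM and 114, 109 and 113 CPM (0.73 ± 0.07, adjusted p = 6.29e-09), and the difference was -1.89 ± 0.32, adjusted p = 4.41e-05, with TM4 means of 1.06 and 0.48 CPM.

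With TM4 above TM3 the largest gaps were in Angptl4, Eln, Tymp, Colec11, Lgals2 and Tcim. Lgals2, a galectin, stood in TM3 at 55.4, 53.8 and 57.9 CPM under DMSO and 34.2, 32.8 and 35.5 CPM under MEHP (-0.70 ± 0.09, adjusted p = 7.19e-07), and Colec11, a collectin of innate immunity, at 11.2, 11 and 9.75 CPM and 7.19, 4.91 and 5.13 CPM (-0.90 ± 0.20, adjusted p = 0.0015). Tymp, thymidine phosphorylase, and Tcim stood at -0.85 ± 0.29, adjusted p = 0.0461 and at -0.97 ± 0.29, adjusted p = 0.0185. Tymp did not pass without DMSO replicate 1 or 3 or any MEHP replicate and with the length and GC correction (adjusted p = 0.0589 to 0.198). Tcim missed the threshold without DMSO replicate 1 or 2 or MEHP replicate 1 or 2 and in limma-voom (adjusted p = 0.0519 to 0.123). The TM4 means of Eln, Tymp, Colec11 and Lgals2 were all below 0.752 CPM or equal to it, so these differences also rest on few counts.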

How the data were processed

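Raw counts per gene were deposited by the authors for 12 libraries, 3 for each of 4 groups. Per the submitters' processing notes they used mm10, featureCounts 1.5.0-p3, HISAT2 2.0.5, edgeR, DESeq2 1.20.0 and StringTie 1.3.3b. Libraries were made by poly-T capture and read as 150-base pairs, per the labels' protocols. Antisense and overlapping genes cannot be told apart from their partners, since the strand setting is not given in the sources used here. Some labels call the lines rat, while the organism field and gene identifiers are mouse.

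Genes kept by edgeR's filterByExpr were fitted in all 12 libraries at once with R 4.3.3 and edgeR 4.0.16, using TMM factors, a robust quasi-likelihood test and a group term alone (biological coefficient of variation 6%, 8 residual degrees of freedom), with Benjamini-Hochberg adjustment over all 15700 genes and a threshold of 0.05. CPM were computed here from the counts and TMM factors. DESeq2 1.42.0, limma 3.58.1 (voom), other factors, filters and thresholds, the replicate number as a block, single libraries left out and a spline correction (4 degrees of freedom) for length and GC content, known for 98.1% of genes, were alternatives. The edgeR fit was tested on simulated data.

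Named genes were protein-coding genes with a symbol. They were the 15 largest log2 fold changes each way among called genes at 2 CPM or more whose groups did not overlap, the 10 largest CPM differences each way among called genes, up to 4 called members of each described list, the 6 largest differences from TM4 each way, and 9 steroidogenic genes. A list was described where at least 8 members were tested and its share called was 1.5 times that of all genes or more, or where at least 20 were tested and it was at most 0.5 times that share. The members and the 55 gene lists were chosen with earlier results of these data known. Cxcl10, Ctsd, Glb1, Gaa, Lamp1, Atp6v0b, Fn1, Dcn, Wt1, Sox9, Amh, Fshr, Ptprc, Apex1 and Ercc1 were named outside the rule, the called ones after their values were seen, as were list members named beside a count. Some genes that the rule names are not reported here. Promoters came from RefSeq (GRCm38.p6), matched by symbol for 10486 of the genes tested, and 12 motifs were searched on both strands in the 250 bases before the gene start.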

Additional observations from a re-analysis of the deposited data

Results flagged for a closer look

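The responses of the lines differed by the test of the difference itself in the joint fit (edgeR quasi-likelihood test, adjusted p under 0.05) for 4134 of 15700 genes. The genes below are those described above that are among them, and each value is the log2 response in TM4 minus that in TM3. A negative value means that TM3 had the higher response. Genes with a group mean of 0 in a line, or with both group means of a line at or under what a count of 0 allows, are left out. Each line has 3 libraries a group, and the lines also differ in their starting levels.

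For signalling genes the differences were Il2rb -0.93, Ptges -1.33, Cxcl12 -1.53, Osmr -0.25, Fgf7 -0.67, Dusp8 -0.83, Alcam -0.34, Pros1 -0.80 and S100a7a -0.97 below 0. They were Saa3 1.40, Cxcl1 1.14, Cish 1.09, Angptl4 3.72, Relb 1.16, Nfkb2 0.63 and Rela 0.53 above 0. For matrix and contractile genes they were Prg4 -1.54, Col9a3 -0.78, Col11a1 -1.57, Gpc6 -1.0, Vcan -0.86, Fbln1 -0.78, Dcn -1.19, Fn1 -1.02, Sparc -0.23 and Aebp1 -0.19. They were P4ha1 -0.61, P4ha2 -0.94, Plod2 -0.69, Adamts3 -0.65, Adamts5 -0.70, Itga1 -1.43, Itga7 -0.62, Nid1 -0.93 and Lamc1 -0.68 for collagen enzymes, a protease and adhesion genes, and Acta2 -1.57, Actn1 -0.83 and Myh9 -0.86 for contractile genes. Above 0 were Eln 2.13, Ecm1 0.71 and Mmp14 0.59.

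For the acid compartments the differences were Atp6v0b 0.40, Atp6v0c 0.93, Atp6v0d1 0.67, Atp6v0e2 1.07, Atp6ap1 0.28, Ctsa 0.63, Neu1 0.55 and Gaa 0.24, and Arsb -0.97 for the gene called higher. For the proteasome and ribosomes they were Psmb10 0.65, Psmc3 0.60, Pomp 0.50, Mrps18a 0.81, Mrpl54 0.49, Mrpl3 0.48, Mrpl11 0.36 and Rpl7l1 0.69, and Rpl24 -1.39 for the uncertain cytosolic gene. For metabolic genes they were Slc1a3 -0.80, Aldh1l2 -0.90, Rrm2 -0.40, Impdh1 -0.65, Tarsl2 -0.59, Mars -0.46, Aox1 -0.88, Adh7 -0.70, Scd2 -0.71 and Pgk1 -0.65, with Gstp1 1.29, Ggt5 0.91 and Mpc2 0.63 above 0.

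For genes of division, motors and the clock they were Top2a -0.88, Ccnd2 -0.36, Fancd2 -0.37, Neil3 -0.60, Bard1 -0.92, Kif14 -0.68, Kif20b -0.84, Dync2h1 -0.36, Per3 -0.54, Per2 -1.65, Clock -0.47 and Pkd2 -0.22, and for histones H2afj 0.56, H3f3a 0.22 and H3f3b 0.28. For the other genes with large folds or gains they were Pxdc1 -1.43, Faxc -1.05, Eef2 -0.29, Srrm2 -0.54, Ermp1 -0.57, mt-Cytb -0.31 and Sybu 0.90. For the other genes that were named for their gap between lines they were Pcdh9 -2.90, Ptchd4 -1.93 and Nrp1 -1.89 with TM3 above, and Tymp 1.72, Colec11 1.72, Lgals2 1.70 and Tcim 1.59 with TM4 above. In TM4 the mean levels of Colec11, Eln, Itga1, Lgals2, Pcdh9, Prg4 and Tymp were below 1 CPM in both groups, so their differences rest on few counts.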

How the results depend on the processing

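Of the 2585 calls in TM3, 1492 held a threshold of 0.01 (862 higher and 630 lower) and 376 a test against a fold of 1.2 with glmTreat (251 and 125). The same settings left 2588 and 1481 calls for the difference of responses, and 3220 and 1185 in TM4. Without 1 library at a time the calls in TM3 numbered 1742 to 2949, the higher ones 1009 to 1636 and the lower ones 709 to 1313, those for the difference 3458 to 4388 and those in TM4 3745 to 4900. RLE factors gave 1326 higher and 1271 lower calls, DESeq2 1323 and 1272, upper-quartile factors 1427 and 1148, no filter 2504 calls, a stricter filter 2671, limma-voom 2630, and the fit on the 6 TM3 libraries alone 3570. The correction for length and GC content, chosen after the data had been seen, gave 1256 and 1580. The correlations of the deviations of libraries with the same number were 0.00446, 0.0293 and 0.0178. Those of libraries with different numbers ran from -0.0338 to 0.017. All of these are small, and whether the numbers pair the samples is not settled by them. With the replicate block the calls were 3558 in TM3 (1910 higher and 1648 lower), 5023 for the difference and 5700 in TM4, all within 1.5 times the unblocked counts. Counts in some lists moved further with the block, and most of these moves are not given above. Lower calls went from 4 to 13 for the mitochondrial ribosome, 11 to 17 for the proteasome and 10 to 18 for ribosome biogenesis. Higher calls went from 8 to 13 for contractile genes and 6 to 10 for tRNA synthetases. No described gene changed its direction with a call in any of these fits. Of 172 tested genes described by name 165 were called, 123 of them in every fit without 1 TM3 library and 160 with the length correction. The causes of these changes were not tested. Genes below 1 CPM were called in 1.83% of cases, and depth limits what can be said of them.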

Other observations

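The genes and groups given here were chosen after their values had been seen. Of the genes for NF-kB subunits, Relb, Nfkb2 and Rela were lower in TM3, while Nfkb1 and Rel did not pass (0.13 ± 0.06, adjusted p = 0.142, and 0.07 ± 0.09, adjusted p = 0.683, edgeR quasi-likelihood test). Relb, of the alternative pathway, stood at 31.8, 29.7 and 29.8 CPM under DMSO and 19.6, 19 and 15.8 CPM under MEHP (-0.74 ± 0.10, adjusted p = 1.92e-06, edgeR quasi-likelihood test). Nfkb2, its partner, stood at 146, 141 and 145 CPM and 104, 103 and 102 CPM (-0.49 ± 0.05, adjusted p = 3.17e-08), and Rela, of the classical pathway, at 95.7, 90.7 and 97.2 CPM and 84.8, 77.1 and 78.9 CPM (-0.24 ± 0.06, adjusted p = 0.00291). The responses in TM4 were 0.42 ± 0.09, 0.15 ± 0.05 and 0.29 ± 0.05, and the difference between lines was called for each.

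The 3 tested genes of the Zfp36 family, whose proteins bind AU-rich elements and hasten the decay of cytokine transcripts, were lower as well. Zfp36 stood at -0.69 ± 0.09, adjusted p = 9.32e-07, Zfp36l1 at -0.39 ± 0.06, adjusted p = 6.35e-06 and Zfp36l2 at -0.42 ± 0.05, adjusted p = 5.08e-07. Their responses in TM4 were -0.49 ± 0.08, -0.39 ± 0.06 and -0.49 ± 0.05, and the difference between lines was 0.20 ± 0.12, adjusted p = 0.223 for Zfp36, 0.00 ± 0.09, adjusted p = 1 for Zfp36l1 and -0.07 ± 0.07, adjusted p = 0.523 for Zfp36l2.

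Ribosome biogenesis genes, which make and assemble the subunits in the nucleolus, were called 1 higher and 10 lower of 74 (14.9%; median -0.06) in TM3 and 43 higher and 1 lower in TM4. The TM3 share is near that of all genes, 16.5%, and in TM4 15.9% of all genes were called higher and 15% lower. The lower members numbered 2 without DMSO replicate 1 or MEHP replicate 2, 5 without DMSO replicate 3 or MEHP replicate 3 and 4 without MEHP replicate 1. Among families of transcription factors in TM3, 1 was called higher and 3 lower of 9 of the Rel homology family. Of 41 of the basic leucine zipper family 3 were called higher and 7 lower. Over all 974 transcription factor genes 7.91% were called higher and 6.57% lower. Other small families also had high shares called, some only higher, with 3 of 8 of the MH1 family and 3 of 10 of the E2F family.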
